A study of Mus musculus with 30 samples.

Results

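The genes described here are 41 named members of glycolysis and of the response to low oxygen: 23 glycolysis genes, 15 other targets of the hypoxia-inducible factors (HIFs), and 3 HIF subunits. The glycolysis genes are 2 glucose transporters, 16 enzymes, 2 monocarboxylate transporters and 3 regulators of flux. They were chosen by gene symbol, and all 41 symbols were found among 54532 annotated features. The symbol Aldoa named 2 features, of which the one with 2 counts was left out, so 42 features carried the 41 symbols. Expression was measured in tumours grown under the skin from 5 clones of YUMM1.7, a Braf-mutant mouse melanoma line of the C57BL/6 strain. The clones 2646TN, 2646R, 14559TN, 14559R and 13TN each gave 3 untreated tumours and 3 tumours treated with RAFi/MEKi, which names inhibition of the kinases RAF and MEK, so 10 groups held 30 libraries. All groups share the cell line and the clone isolation by CaTCH barcodes, and live cells with strong GFP signal were sorted after collagenase dissociation and CD45 staining. The labels give no drug name, dose, duration or age of the mice and do not spell out TN and R, which serve here as names. The titles of the 13TN samples carry the word Depleted. Each clone name stands for 1 isolated clone, so no p-value here covers the spread between clones.

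Glycolysis splits glucose into pyruvate, which is reduced to lactate and exported or passed to mitochondria. HIFs are pairs of an alpha subunit, encoded by Hif1a or Epas1, and the partner encoded by Arnt. The alpha subunits are marked for destruction by oxygen-dependent prolyl hydroxylases and accumulate when oxygen is scarce, and growth factor signalling through the MAPK pathway is known to raise HIF activity and glycolysis in melanoma cells. HIF dimers bind a short core sequence in DNA and raise most glycolytic enzymes together with genes for mitophagy, collagen hydroxylation and oxygen sensing.

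Promoter windows from 250 bases before to 50 bases after the transcription start were taken from RefSeq on GRCm38.p6, and 36 of the 41 members had one. The HIF core motif was searched as ACGTG and GCGTG on both strands. A gene counted as matched where any of its windows held the motif. At least 1 match was present in 33 of the 36 members (91.7%), in 19 of 22 glycolysis genes (86.4%), in 12 of 12 other HIF targets and in 2 of 2 HIF subunits. Among all 27025 genes with a window 46.7% held a match, and among the 9468 of them that entered the expression tests 68.1% did. The 36 members had 53 windows, the 27025 genes 32851 and the 9468 tested genes 12080. Members thus had more windows per gene in which a match could lie. With ACGTG alone the share was 69.4% of the members, 21.8% of all genes and 29.3% of tested genes. The median window of the members held 63.3% G or C and 21 CG pairs, against 52.7% and 7 for all genes and 61.0% and 21 for tested genes. For the other HIF targets alone it held 69.7% and 26, above the tested genes, and the motif itself contains CG. Epas1, Plod2, Ndrg1, Slc2a3 and Bnip3l had no entry. The windows printed next come only from other HIF targets or flux regulators with at least 1 match, so each holds a match by this choice. Among those genes, the printed ones had the largest mean absolute response over the 5 clones. Ndrg1 and the other members without an entry were not among those considered. The windows are written 5′ to 3′ in the direction of the gene with matches in capitals, and the responses of these genes follow.
Ankrd37: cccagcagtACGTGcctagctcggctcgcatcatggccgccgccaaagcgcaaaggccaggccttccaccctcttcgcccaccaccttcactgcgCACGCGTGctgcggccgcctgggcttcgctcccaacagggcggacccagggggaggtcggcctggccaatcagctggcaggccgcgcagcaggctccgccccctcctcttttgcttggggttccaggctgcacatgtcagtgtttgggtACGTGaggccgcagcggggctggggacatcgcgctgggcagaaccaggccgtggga
Adm: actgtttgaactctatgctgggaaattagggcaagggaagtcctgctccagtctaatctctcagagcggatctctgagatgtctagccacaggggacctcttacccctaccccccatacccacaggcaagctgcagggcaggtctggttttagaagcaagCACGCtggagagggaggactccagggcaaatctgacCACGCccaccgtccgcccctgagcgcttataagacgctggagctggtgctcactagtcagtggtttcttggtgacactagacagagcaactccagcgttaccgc
Bnip3: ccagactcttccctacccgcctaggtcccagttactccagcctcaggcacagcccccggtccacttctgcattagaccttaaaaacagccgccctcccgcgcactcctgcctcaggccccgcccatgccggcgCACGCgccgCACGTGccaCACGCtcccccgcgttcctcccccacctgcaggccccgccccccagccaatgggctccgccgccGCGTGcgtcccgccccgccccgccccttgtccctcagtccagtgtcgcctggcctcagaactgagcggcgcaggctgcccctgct
Pdk1: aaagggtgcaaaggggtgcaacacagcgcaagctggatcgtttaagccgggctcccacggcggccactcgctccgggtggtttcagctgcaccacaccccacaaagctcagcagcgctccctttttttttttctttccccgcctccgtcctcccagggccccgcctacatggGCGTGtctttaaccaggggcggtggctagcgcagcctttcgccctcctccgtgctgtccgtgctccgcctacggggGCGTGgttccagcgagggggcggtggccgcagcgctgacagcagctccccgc
The windows lie at chr8:45999801-46000100, minus strand, for Ankrd37, at chr7:110627407-110627706, plus strand, for Adm, at chr7:138909457-138909756, minus strand, for Bnip3, and at chr2:71872974-71873273, plus strand, for Pdk1, which has 2 windows in the table. Counted per strand, with overlapping matches kept, they held 4, 2, 5 and 2 matches. In Bnip3 the run CACGTG counts on both strands, and in Ankrd37 the run CACGCGTG holds a match on each strand. The match nearest to a start began 6 bases before it in Ankrd37, 54 in Adm, 35 in Bnip3 and 2 in Pdk1. In Pdk1 this match runs across the start. A match describes the letters of a window and not binding. On GRCm38, as the count files annotate it, Slc2a1 spans chr4:119108711-119137983, plus strand (ENSMUSG00000028645), Pkm chr9:59656368-59679375, plus strand (ENSMUSG00000032294) and Ldha chr7:46841475-46855627, plus strand (ENSMUSG00000063229). Pdk1 spans chr2:71873224-71903858, plus strand (ENSMUSG00000006494), Hif1a chr12:73901375-73947530, plus strand (ENSMUSG00000021109) and Epas1 chr17:86753907-86833410, plus strand (ENSMUSG00000024140). Egln3 spans chr12:54178981-54203860, minus strand (ENSMUSG00000035105), Bnip3 chr7:138890836-138909519, minus strand (ENSMUSG00000078566), Ankrd37 chr8:45996902-46005707, minus strand (ENSMUSG00000050914), Ndrg1 chr15:66929318-66969640, minus strand (ENSMUSG00000005125) and Adm chr7:110627661-110629820, plus strand (ENSMUSG00000030790). The printed Ankrd37 window thus lies inside the span of the counted gene and not at its annotated 5′ end, 46005707. Counts were summed over the exons of each gene.

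Counts come from the 3′ ends of transcripts, and levels are given as CPM (counts scaled to a common library size) in each library, so they compare groups for a gene and not genes with each other. Library totals ran from 3022801 to 5278453 counts. Of the members, 38 entered the tests, and Slc2a3 (25 counts over all libraries), Aldoc (52) and Pgam1 (123) were too low. Gapdh (216) and Pgk1 (451) were also low in total; 102 annotated genes with ends at least 95% identical to that of Gapdh held 2719 counts, no such gene was found for Pgk1, and the part of read assignment in these low values was not tested. Eno1 has 1 such copy, Eno1b, with 38 counts. The melanocyte genes Dct, Tyr and Tyrp1 were at 0 in every group, so pigment genes do not mark these tumours, while Mitf had group means of 13.9 to 64.4 CPM. The 5 genes of dividing cells summed to 513 to 644 CPM in untreated and 90.8 to 131 CPM in treated libraries of 14559TN, and to 805 to 890.5 and 81.0 to 109 CPM in 13TN. In 2646R their sum was 580.5 to 916 CPM untreated and 1183 to 1426 CPM treated, and none of the 5 was at 0 in any group. In 2646TN the 15 macrophage genes summed to 204 to 309 CPM untreated and 37.0 to 87.3 treated. In 2646R that sum was 40.7 to 85.5 and then 132 to 157 CPM. No macrophage gene was at 0 in a group. The 8 genes of pericytes and smooth muscle summed to 48.6 to 70.6 CPM untreated and 246 to 722 treated in 2646TN, and to 315 to 352 and 754 to 1018 CPM in 2646R. In 13TN they summed to 165 to 185 and then 59.7 to 121 CPM. The 10 genes of dissociation stress summed to 1437 to 2293 CPM untreated and 714 to 1034 treated in 2646TN. In 13TN they summed to 1237 to 1910 CPM untreated and 1651 to 2765 treated, with overlap. Their ranges also overlapped in 2646R, 14559TN and 14559R. The list includes Fos, Jun and Egr1, and whether its sum reflects dissociation or the drugs themselves was not tested. The 10 fibroblast genes, which include collagen genes, summed to 5924 to 7224 CPM untreated and 14401 to 16155 treated in 2646R, and to 3786 to 4609.6 and 8135 to 9199 CPM in 13TN. In 14559TN they summed to 8719.7 to 9580.4 CPM untreated and 9966 to 16048 treated. The part of these shifts in the results below was not tested, and fewer cells of a type cannot be told apart from less RNA per cell.

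Glycolysis and HIF target transcripts fell under RAFi/MEKi in 4 of the 5 clones, and in 14559R no member was called. A member counts as called, higher or lower, where the p of the edgeR quasi-likelihood test, corrected by Benjamini-Hochberg for all 13286 genes tested, was under 0.05. In 2646TN 20 of 38 members fell and 0 rose, against 2.24% and 1.69% of all tested genes. In 2646R 30 fell and 0 rose, where 10.2% of tested genes fell and 9.70% rose. In 14559TN 20 fell and 1 rose, beside 16.0% and 12.4% of tested genes. In 13TN 20 fell and 2 rose, beside 17.4% and 13.6%. In 14559R 0 members passed, and of all tested genes 0.143% rose and 0.0527% fell. The unadjusted p was under 0.05 for 6 members in 14559R, all of them higher, and DESeq2 called 1 member there. The median log2 fold change of the 38 members was -0.95 in 2646TN, -1.41 in 2646R, -0.72 in 14559TN, 0.17 in 14559R and -0.91 in 13TN. The medians of all tested genes in the same order were 0.01, 0.01, -0.00043, 0.0014 and -0.0025.

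The same 15 members were called lower in each of 2646TN, 2646R, 14559TN and 13TN: the enzymes Gpi1, Pfkl, Aldoa, Tpi1, Pkm and Ldha, the regulator Pdk1, and the HIF targets Bnip3, Egln1, Egln3, Ankrd37, P4ha1, P4ha2, Plod2 and Fam162a. Another 3, Eno1, Mxi1 and Slc2a1, were called lower in 3 clones. At the other end, Eno2, Pfkm, Pfkfb4, Gapdh, Epas1 and Arnt were called lower in none. How many of all tested genes were called lower in all of 2646TN, 2646R, 14559TN and 13TN was not counted. Nor was the number called lower in 3 clones, so these shared counts of members have no background beside them. Over the 10 groups, 14 of the 38 members were highest in untreated 2646R, 8 in untreated 14559R and 8 in treated 14559R, and 19 were lowest in treated 14559TN. These ranks of group means were not tested and not counted over all tested genes, and no member was called between treated and untreated 14559R. Under every alternative setting, 14 of the 20 calls in 2646TN, 27 of 30 in 2646R, 18 of 21 in 14559TN and 21 of 22 in 13TN held, and the calls that did not are named beside their genes.

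**Figure D1:**
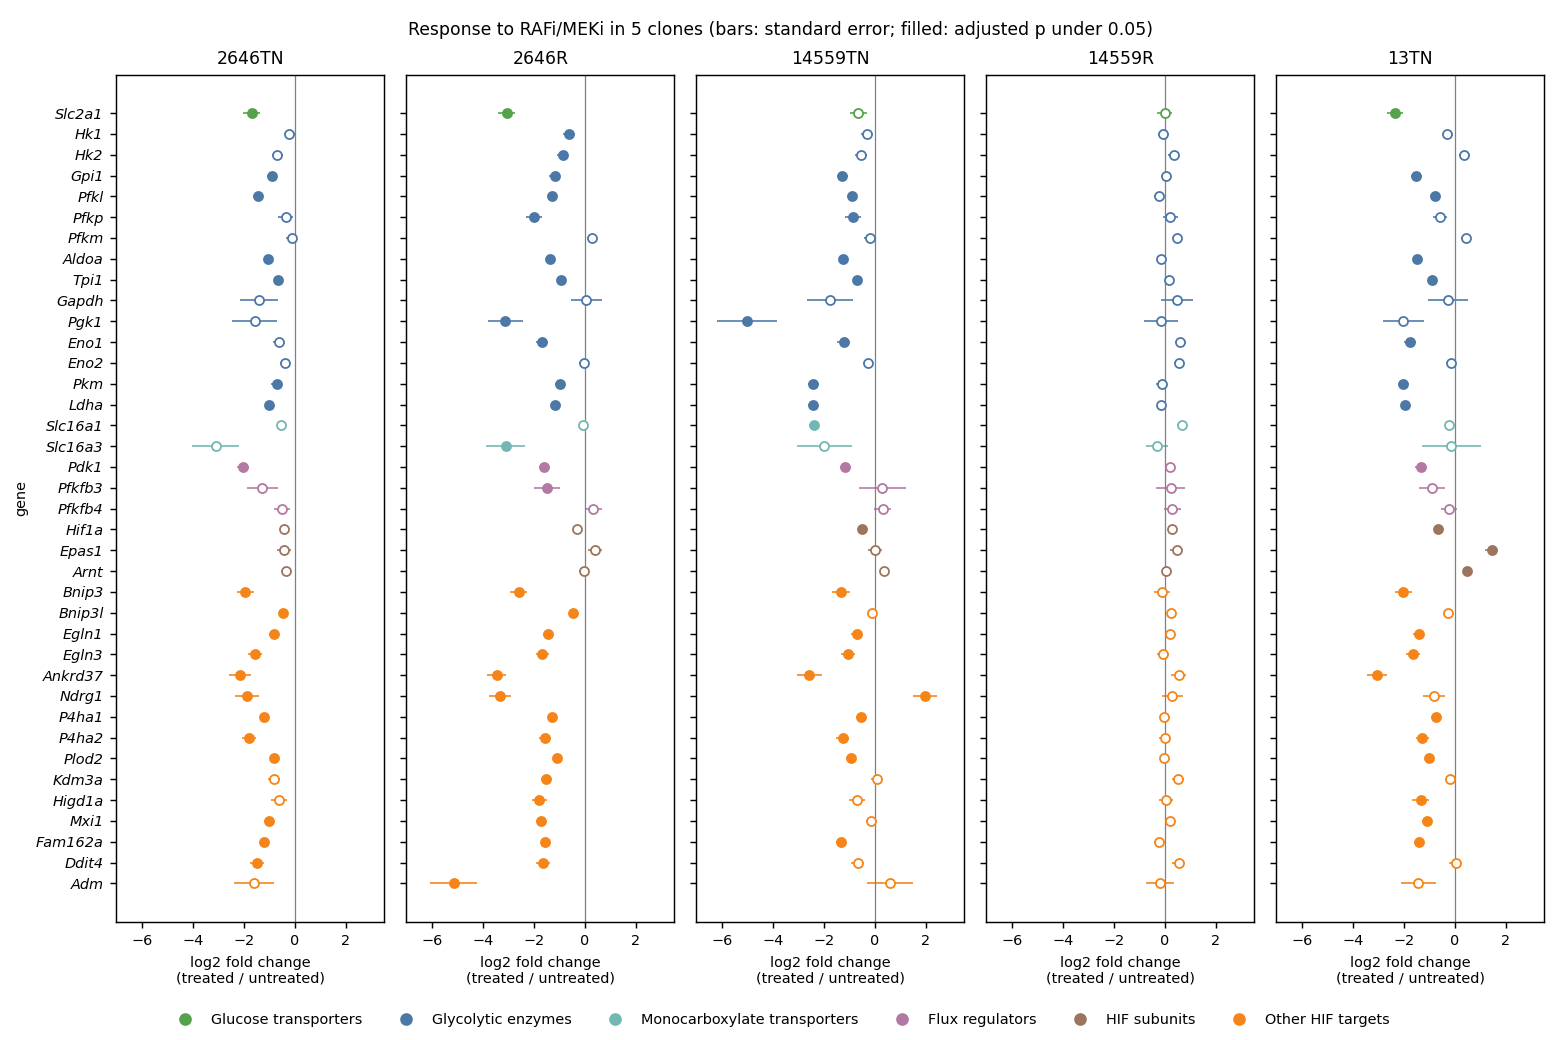
Log2 fold change of treated over untreated tumours for the 38 tested members (rows) in the 5 clones (panels), with bars for the standard error, colours for the role and filled points for an adjusted p under 0.05. Points lie left of 0 in most rows of 2646TN, 2646R, 14559TN and 13TN, where 20, 30, 20 and 20 members fell, and around 0 in 14559R.

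Glucose enters these cells through facilitative transporters, of which Slc2a1 encodes the ubiquitous GLUT1. The 2646TN libraries held Slc2a1 at 116, 112 and 69.7 CPM without the drugs and at 36.7, 30.2 and 25.0 CPM with them, which gave -1.69 ± 0.33 on the log2 scale (edgeR adjusted p = 0.00314). For Slc2a1 in 2646R, the untreated levels were 457, 384 and 482 CPM and the treated levels 53.8, 49.4 and 54.4 CPM (-3.07 ± 0.32 on the log2 scale, edgeR adjusted p = 5.41e-07). In 13TN tumours Slc2a1 measured 283, 180.3 and 379 CPM untreated and 47.6, 52.2 and 65.0 CPM treated, a log2 fold change of -2.35 ± 0.31 (edgeR adjusted p = 4.41e-06). Every treated library lay below every untreated one in these 3 clones. The 14559TN libraries held Slc2a1 at 40.1, 48.2 and 49.4 CPM without the drugs and at 16.5, 30.3 and 40.0 CPM with them, which gave -0.66 ± 0.33 on the log2 scale (edgeR adjusted p = 0.143). For Slc2a1 in 14559R, the untreated levels were 402, 239.5 and 241 CPM and the treated levels 179, 289 and 406 CPM (-0.01 ± 0.29 on the log2 scale, edgeR adjusted p = 1). Slc2a1 was not called in 14559TN or 14559R. The ranges did not overlap in 14559TN, where the highest treated library lay just under the lowest untreated one, and they overlapped in 14559R.

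The first steps use hexokinases (Hk1, Hk2), which trap glucose as its phosphate, glucose phosphate isomerase (Gpi1) and phosphofructokinase, whose liver, platelet and muscle isoenzymes are Pfkl, Pfkp and Pfkm. Hk1 fell in 2646R and so did Hk2, and neither was called in another clone. Hk1 log2 fold changes were -0.23 ± 0.22 in 2646TN, -0.63 ± 0.22 in 2646R, -0.32 ± 0.23 in 14559TN, -0.07 ± 0.22 in 14559R and -0.31 ± 0.22 in 13TN (edgeR adjusted p = 0.0476 in 2646R). The Hk1 call in 2646R was lost with median-of-ratios size factors (edgeR adjusted p = 0.0595), with scaling by total counts only (edgeR adjusted p = 0.052) and without untreated 2646R replicates 2 or 3 or treated 2646R replicates 1, 2 or 3 (edgeR adjusted p = 0.11 to 0.239). For Hk2 they were -0.70 ± 0.22 in 2646TN, -0.87 ± 0.21 in 2646R, -0.56 ± 0.23 in 14559TN, 0.34 ± 0.21 in 14559R and 0.37 ± 0.22 in 13TN (edgeR adjusted p = 0.00474 in 2646R). Gpi1 fell in 4 clones. Its log2 fold changes were -0.90 ± 0.21 in 2646TN, -1.19 ± 0.21 in 2646R, -1.27 ± 0.21 in 14559TN, 0.04 ± 0.20 in 14559R and -1.51 ± 0.21 in 13TN, and the 4 decreases outside 14559R were called (edgeR adjusted p = 3.12e-06 to 0.0105). The Gpi1 call in 2646TN was lost without untreated 2646TN replicate 2 or treated 2646TN replicates 1 or 2 (edgeR adjusted p = 0.0513, 0.0516 and 0.0602).

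The phosphofructokinase isoenzymes differed from each other in their calls. Pfkl fell in 4 clones, Pfkp in 2 and Pfkm in none. For Pfkl, log2 fold changes of Pfkl were -1.45 ± 0.20 in 2646TN, -1.30 ± 0.20 in 2646R, -0.89 ± 0.21 in 14559TN, -0.24 ± 0.19 in 14559R and -0.79 ± 0.20 in 13TN, and the 4 decreases outside 14559R were called (edgeR adjusted p = 2.03e-05 to 0.00281). For Pfkp, log2 fold changes of Pfkp were -0.37 ± 0.30 in 2646TN, -2.01 ± 0.31 in 2646R, -0.86 ± 0.31 in 14559TN, 0.21 ± 0.28 in 14559R and -0.58 ± 0.29 in 13TN, called lower in 2646R and 14559TN (edgeR adjusted p = 6.13e-05 to 0.0414). The Pfkp call in 14559TN was lost with median-of-ratios size factors (edgeR adjusted p = 0.0506) and without untreated 14559TN replicates 1 or 2 or treated 14559TN replicates 1, 2 or 3 (edgeR adjusted p = 0.0791 to 0.147). For Pfkm, log2 fold changes of Pfkm were -0.13 ± 0.20 in 2646TN, 0.29 ± 0.19 in 2646R, -0.21 ± 0.20 in 14559TN, 0.46 ± 0.20 in 14559R and 0.43 ± 0.20 in 13TN, none of them called. In 2646R, Pfkp went from 66.2, 100.4 and 102 to 18.9, 23.4 and 24.3 CPM while Pfkm stood at 40.3, 32.0 and 36.1 and then 54.7, 35.8 and 42.0 CPM. The difference between isoenzymes within a clone was not tested.

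**Figure D2:**
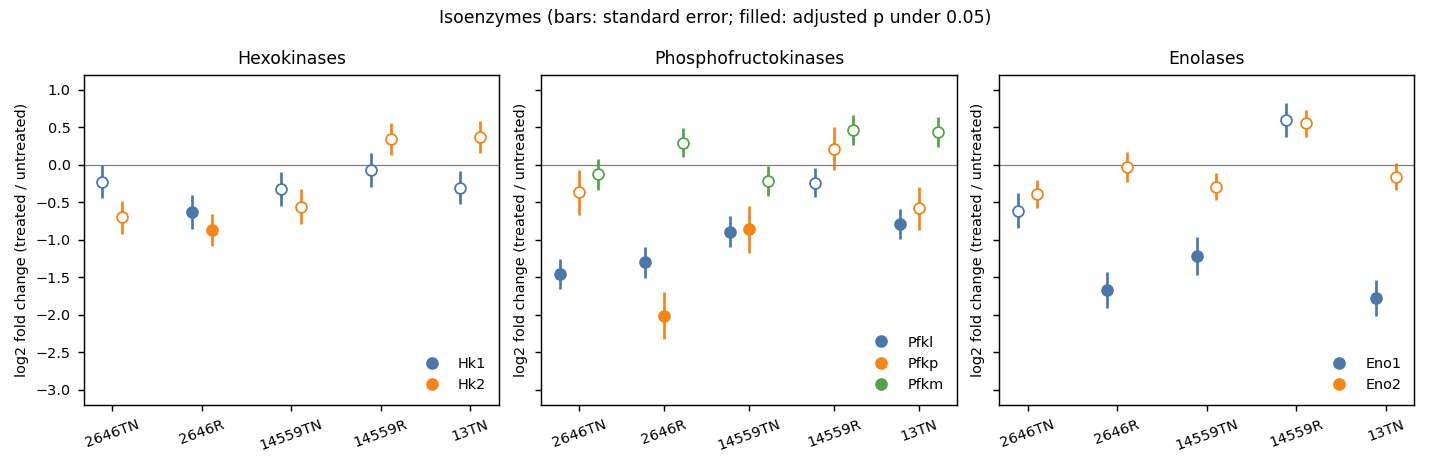
Log2 fold change of treated over untreated tumours with its standard error for the hexokinases, phosphofructokinases and enolases in the 5 clones; filled points passed an adjusted p under 0.05. Pfkl and Eno1 lie below 0 in 2646TN, 2646R, 14559TN and 13TN (Eno1 open in 2646TN), whereas no Pfkm or Eno2 point is filled.

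Aldolase A (Aldoa) and triose phosphate isomerase (Tpi1) split the sugar into its triose phosphates and interconvert them. Both fell in 4 clones. For Aldoa, log2 fold changes of Aldoa were -1.07 ± 0.16 in 2646TN, -1.39 ± 0.16 in 2646R, -1.25 ± 0.16 in 14559TN, -0.18 ± 0.15 in 14559R and -1.49 ± 0.16 in 13TN, and the 4 decreases outside 14559R were called (edgeR adjusted p = 7.02e-09 to 6.13e-05). For Tpi1, log2 fold changes of Tpi1 were -0.66 ± 0.15 in 2646TN, -0.93 ± 0.15 in 2646R, -0.72 ± 0.15 in 14559TN, 0.16 ± 0.15 in 14559R and -0.91 ± 0.15 in 13TN, and the 4 decreases outside 14559R were called (edgeR adjusted p = 1.46e-05 to 0.00645). The Tpi1 call in 2646TN was lost without untreated 2646TN replicate 1 (edgeR adjusted p = 0.0658). Phosphoglycerate kinase (Pgk1), which makes the first ATP of the pathway, rests on few counts. In 2646R tumours Pgk1 measured 25.7, 8.52 and 6.01 CPM untreated and 3.04, 0.469 and 1.01 CPM treated, a log2 fold change of -3.12 ± 0.69 (edgeR adjusted p = 0.00152). In 14559TN, Pgk1 had 41 counts over the untreated libraries and 1 over the treated ones, a ratio of 43.4 with a 95% exact Poisson interval of 7.79 to 1714 that covers counting error only. Gapdh was not called in any clone, with log2 fold changes of -1.40 ± 0.75 in 2646TN, 0.05 ± 0.61 in 2646R, -1.77 ± 0.91 in 14559TN, 0.47 ± 0.64 in 14559R and -0.28 ± 0.77 in 13TN.

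Enolase makes phosphoenolpyruvate, and Eno1 and Eno2 encode its widespread and its neuronal form. The 13TN libraries held Eno1 at 81.1, 88.3 and 99.1 CPM without the drugs and at 26.2, 26.1 and 26.2 CPM with them, which gave -1.77 ± 0.24 on the log2 scale (edgeR adjusted p = 1.56e-06). For Eno1 in 2646R, the untreated levels were 115, 85.7 and 113 CPM and the treated levels 28.7, 40.3 and 29.3 CPM (-1.67 ± 0.24 on the log2 scale, edgeR adjusted p = 8.46e-06). In 14559TN tumours Eno1 measured 53.6, 43.0 and 51.7 CPM untreated and 21.6, 24.4 and 17.4 CPM treated, a log2 fold change of -1.22 ± 0.25 (edgeR adjusted p = 4.48e-04). These 3 falls were called, and the changes in 2646TN (-0.61 ± 0.24, edgeR adjusted p = 0.154) and 14559R (0.60 ± 0.23, edgeR adjusted p = 0.311) were not. Eno2 had log2 fold changes of -0.39 ± 0.19 in 2646TN, -0.03 ± 0.20 in 2646R, -0.29 ± 0.18 in 14559TN, 0.55 ± 0.19 in 14559R and -0.16 ± 0.18 in 13TN, none of them called.

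Pyruvate kinase (Pkm) closes the pathway, and its transcript is shared here by both splice forms, which 3′ counts do not separate. The 14559TN libraries held Pkm at 1331, 1649 and 1467 CPM without the drugs and at 325, 244 and 259.9 CPM with them, which gave -2.43 ± 0.22 on the log2 scale (edgeR adjusted p = 2.58e-09). For Pkm in 13TN, the untreated levels were 1896, 1485 and 2019 CPM and the treated levels 461, 332 and 532 CPM (-2.03 ± 0.21 on the log2 scale, edgeR adjusted p = 2.97e-08). In both clones the treated libraries were all below the untreated ones. In 2646TN tumours Pkm measured 1641, 1861 and 2114 CPM untreated and 896, 932 and 1599 CPM treated, a log2 fold change of -0.71 ± 0.21 (edgeR adjusted p = 0.0479). The Pkm call in 2646TN was lost in a fit restricted to the compared groups (edgeR adjusted p = 0.11) and without untreated 2646TN replicates 1, 2 or 3 or treated 2646TN replicates 1 or 2 (edgeR adjusted p = 0.0919 to 0.207). The 2646R libraries held Pkm at 1657, 2159 and 2494 CPM without the drugs and at 1177, 999.6 and 1018 CPM with them, which gave -0.98 ± 0.21 on the log2 scale (edgeR adjusted p = 0.00114). For Pkm in 14559R, the untreated levels were 2676, 1821 and 2282 CPM and the treated levels 1595, 2249.8 and 2354 CPM (-0.13 ± 0.21 on the log2 scale, edgeR adjusted p = 0.885). Treated and untreated 14559R libraries overlapped in Pkm.

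Lactate dehydrogenase A (Ldha) reduces pyruvate to lactate. In 14559TN tumours Ldha measured 226, 210.2 and 236 CPM untreated and 35.5, 49.9 and 38.0 CPM treated, a log2 fold change of -2.44 ± 0.17 (edgeR adjusted p = 1.82e-12). The 13TN libraries held Ldha at 366, 349 and 462 CPM without the drugs and at 95.8, 108 and 101 CPM with them, which gave -1.95 ± 0.16 on the log2 scale (edgeR adjusted p = 3.04e-11). Treated libraries of 14559TN and 13TN did not reach the untreated range. For Ldha in 2646TN, the untreated levels were 239, 264 and 201 CPM and the treated levels 118, 132 and 98.2 CPM (-1.01 ± 0.16 on the log2 scale, edgeR adjusted p = 1.07e-04). In 2646R tumours Ldha measured 442, 409 and 476 CPM untreated and 216, 189 and 184 CPM treated, a log2 fold change of -1.17 ± 0.15 (edgeR adjusted p = 1.50e-06). The 14559R libraries held Ldha at 525, 364 and 433 CPM without the drugs and at 336, 352 and 484 CPM with them, which gave -0.17 ± 0.15 on the log2 scale (edgeR adjusted p = 0.757). In 14559R the ranges overlapped. Lactate leaves through the monocarboxylate transporters MCT1 (Slc16a1) and MCT4 (Slc16a3). For Slc16a1 in 14559TN, the untreated levels were 40.1, 34.1 and 38.8 CPM and the treated levels 7.95, 8.15 and 5.43 CPM (-2.38 ± 0.20 on the log2 scale, edgeR adjusted p = 1.90e-10). Slc16a1 was not called in the other clones (log2 fold changes of -0.54 ± 0.17 in 2646TN, -0.08 ± 0.17 in 2646R, 0.66 ± 0.17 in 14559R and -0.23 ± 0.16 in 13TN). Genes on the same strand that overlap Slc16a1 held 1009 counts beside its own 5709.

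Slc16a3 was sparse outside 14559R. It had 46.6, 23.3 and 33.7 CPM in untreated and 22.4, 40.5 and 21.2 CPM in treated 14559R libraries, and group means of at most 4.24 CPM in the other 8 groups. Its call in 2646R (-3.11 ± 0.75, edgeR adjusted p = 0.00344) rests on a treated group with 6 counts. In treated 2646TN, 3 counts stood against 31 untreated, a ratio of 9.41 (95% exact Poisson interval 3.22 to 45.6), and the change was not called.

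Flux is set by pyruvate dehydrogenase kinase 1 (Pdk1), which keeps pyruvate out of mitochondria, and by the bifunctional enzymes Pfkfb3 and Pfkfb4, which tune the activator of phosphofructokinase. In 2646TN tumours Pdk1 measured 57.9, 100.4 and 61.6 CPM untreated and 21.7, 12.7 and 18.2 CPM treated, a log2 fold change of -2.05 ± 0.23 (edgeR adjusted p = 9.71e-07). The 2646R libraries held Pdk1 at 93.1, 87.6 and 95.3 CPM without the drugs and at 35.4, 30.9 and 24.3 CPM with them, which gave -1.603 ± 0.22 on the log2 scale (edgeR adjusted p = 2.19e-06). Both clones had lower Pdk1 with no overlap between treated and untreated libraries. For Pdk1 in 14559TN, the untreated levels were 47.5, 47.3 and 36.3 CPM and the treated levels 22.4, 17.5 and 18.9 CPM (-1.16 ± 0.23 on the log2 scale, edgeR adjusted p = 2.24e-04). In 13TN tumours Pdk1 measured 70.6, 61.5 and 76.6 CPM untreated and 20.97, 25.9 and 36.3 CPM treated, a log2 fold change of -1.33 ± 0.22 (edgeR adjusted p = 1.67e-05). The 14559R libraries held Pdk1 at 104, 74.2 and 107 CPM without the drugs and at 90.2, 102 and 136 CPM with them, which gave 0.20 ± 0.20 on the log2 scale (edgeR adjusted p = 0.79). Pdk1, whose window with its matches is printed above, was thus lower in every clone but 14559R. Pfkfb3 was called lower in 2646R alone, at 5.11, 8.76 and 27.6 CPM untreated and 4.78, 5.62 and 4.30 CPM treated (-1.47 ± 0.51, edgeR adjusted p = 0.0377). The Pfkfb3 call in 2646R was lost in a fit restricted to the compared groups (edgeR adjusted p = 0.0713) and without untreated 2646R replicate 3 or treated 2646R replicates 1, 2 or 3 (edgeR adjusted p = 0.0845 to 0.594). Pfkfb4 was called in none (log2 fold changes of -0.51 ± 0.32 in 2646TN, 0.32 ± 0.34 in 2646R, 0.30 ± 0.33 in 14559TN, 0.29 ± 0.34 in 14559R and -0.23 ± 0.32 in 13TN).

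The transcripts of the HIF subunits were measured here, and their protein, which oxygen controls, was not. For Hif1a in 14559TN, the untreated levels were 130.4, 114 and 126 CPM and the treated levels 82.1, 84.4 and 91.1 CPM (-0.53 ± 0.15 on the log2 scale, edgeR adjusted p = 0.00715). In 13TN tumours Hif1a measured 145, 120.1 and 155 CPM untreated and 91.8, 84.6 and 90.4 CPM treated, a log2 fold change of -0.65 ± 0.15 (edgeR adjusted p = 8.64e-04). Hif1a, which encodes HIF-1 alpha, was called lower in these clones. The 2646TN libraries held Hif1a at 116, 127 and 139 CPM without the drugs and at 94.9, 77.6 and 111 CPM with them, which gave -0.43 ± 0.15 on the log2 scale (edgeR adjusted p = 0.096). For Hif1a in 2646R, the untreated levels were 169, 149 and 141 CPM and the treated levels 130.5, 117 and 125 CPM (-0.30 ± 0.14 on the log2 scale, edgeR adjusted p = 0.14). In 14559R tumours Hif1a measured 162, 107 and 163 CPM untreated and 161, 162 and 201 CPM treated, a log2 fold change of 0.28 ± 0.14 (edgeR adjusted p = 0.499). In these 3 clones Hif1a was not called.

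Epas1 encodes HIF-2 alpha. The 13TN libraries held Epas1 at 29.2, 31.0 and 18.8 CPM without the drugs and at 60.7, 67.8 and 85.6 CPM with them, which gave 1.43 ± 0.25 on the log2 scale (edgeR adjusted p = 4.13e-05). For Epas1 in 2646TN, the untreated levels were 20.7, 30.9 and 16.4 CPM and the treated levels 19.5, 16.2 and 14.6 CPM (-0.42 ± 0.27 on the log2 scale, edgeR adjusted p = 0.485). In 2646R tumours Epas1 measured 6.68, 10.7 and 9.83 CPM untreated and 12.8, 7.50 and 15.2 CPM treated, a log2 fold change of 0.39 ± 0.29 (edgeR adjusted p = 0.361). Epas1 rose in 13TN, where all treated libraries were above all untreated ones. The 14559TN libraries held Epas1 at 15.2, 17.8 and 17.6 CPM without the drugs and at 18.5, 19.8 and 11.7 CPM with them, which gave -0.01 ± 0.27 on the log2 scale (edgeR adjusted p = 0.988). For Epas1 in 14559R, the untreated levels were 14.96, 21.7 and 13.9 CPM and the treated levels 27.7, 22.2 and 19.7 CPM (0.46 ± 0.26 on the log2 scale, edgeR adjusted p = 0.567). In 13TN tumours Arnt measured 31.4, 34.5 and 24.9 CPM untreated and 46.0, 44.9 and 35.3 CPM treated, a log2 fold change of 0.47 ± 0.17 (edgeR adjusted p = 0.0342). Arnt, the shared partner, was called higher in 13TN as Epas1 was, and it was not called in the other 4 responses. The Arnt call in 13TN was lost with no filter on low counts (edgeR adjusted p = 0.108) and without untreated 13TN replicate 3 or treated 13TN replicates 1 or 2 (edgeR adjusted p = 0.161, 0.0948 and 0.0834).

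Egln1 and Egln3 encode the oxygen-sensing prolyl hydroxylases PHD2 and PHD3, which are both inhibitors and targets of HIF. The 2646TN libraries held Egln3 at 102, 122 and 98.9 CPM without the drugs and at 30.8, 29.2 and 49.5 CPM with them, which gave -1.55 ± 0.27 on the log2 scale (edgeR adjusted p = 0.00112). For Egln3 in 2646R, the untreated levels were 182, 245 and 266 CPM and the treated levels 95.5, 55.3 and 67.0 CPM (-1.67 ± 0.26 on the log2 scale, edgeR adjusted p = 5.71e-05). No treated library of these clones reached the untreated range of Egln3. In 14559TN tumours Egln3 measured 51.5, 67.9 and 55.5 CPM untreated and 35.8, 20.5 and 28.0 CPM treated, a log2 fold change of -1.06 ± 0.28 (edgeR adjusted p = 0.00578). The 13TN libraries held Egln3 at 218, 176 and 224 CPM without the drugs and at 68.1, 71.2 and 58.2 CPM with them, which gave -1.64 ± 0.26 on the log2 scale (edgeR adjusted p = 3.01e-05). For Egln3 in 14559R, the untreated levels were 325, 175 and 223 CPM and the treated levels 152, 217 and 313 CPM (-0.08 ± 0.25 on the log2 scale, edgeR adjusted p = 0.945). In 14559R the Egln3 ranges overlapped. Egln1 was called lower in the same 4 clones. Its log2 fold changes were -0.82 ± 0.21 in 2646TN, -1.44 ± 0.20 in 2646R, -0.72 ± 0.21 in 14559TN, 0.18 ± 0.20 in 14559R and -1.43 ± 0.21 in 13TN, and the 4 decreases outside 14559R were called (edgeR adjusted p = 3.84e-06 to 0.0219). The Egln1 call in 2646TN was lost in a fit restricted to the compared groups (edgeR adjusted p = 0.0819) and without untreated 2646TN replicates 1 or 2 or treated 2646TN replicates 2 or 3 (edgeR adjusted p = 0.0757 to 0.127). The Egln1 call in 14559TN was lost without untreated 14559TN replicate 3 (edgeR adjusted p = 0.082).

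Bnip3 and Bnip3l encode mitophagy receptors, and the window of Bnip3 printed above holds the most matches of the 4. In 2646TN tumours Bnip3 measured 186, 273 and 184 CPM untreated and 65.2, 45.4 and 55.5 CPM treated, a log2 fold change of -1.95 ± 0.33 (edgeR adjusted p = 0.00114). The 2646R libraries held Bnip3 at 230.0, 302 and 381 CPM without the drugs and at 62.5, 50.8 and 36.4 CPM with them, which gave -2.60 ± 0.34 on the log2 scale (edgeR adjusted p = 9.47e-06). Treated Bnip3 levels were all below the untreated ones in both. For Bnip3 in 14559TN, the untreated levels were 88.8, 146 and 109.9 CPM and the treated levels 63.0, 41.8 and 32.0 CPM (-1.33 ± 0.33 on the log2 scale, edgeR adjusted p = 0.00433). In 13TN tumours Bnip3 measured 217, 160.2 and 244 CPM untreated and 40.6, 33.6 and 79.1 CPM treated, a log2 fold change of -2.02 ± 0.33 (edgeR adjusted p = 6.80e-05). The 14559R libraries held Bnip3 at 421, 237 and 308 CPM without the drugs and at 208, 319.9 and 364 CPM with them, which gave -0.11 ± 0.31 on the log2 scale (edgeR adjusted p = 0.939). Of the paralogues, Bnip3l was called in 2 clones only. Its log2 fold changes were -0.47 ± 0.13 in 2646TN, -0.47 ± 0.14 in 2646R, -0.11 ± 0.13 in 14559TN, 0.22 ± 0.13 in 14559R and -0.28 ± 0.13 in 13TN, called lower in 2646TN and 2646R (edgeR adjusted p = 0.0145 to 0.0399). The Bnip3l call in 2646TN was lost with no filter on low counts (edgeR adjusted p = 0.117), in a fit restricted to the compared groups (edgeR adjusted p = 0.146) and without untreated 2646TN replicates 1, 2 or 3 or treated 2646TN replicates 1 or 2 (edgeR adjusted p = 0.0764 to 0.153). The Bnip3l call in 2646R was lost with no filter on low counts (edgeR adjusted p = 0.113), in a fit restricted to the compared groups (edgeR adjusted p = 0.0769) and without untreated 2646R replicate 3 or treated 2646R replicates 1 or 2 (edgeR adjusted p = 0.198, 0.0577 and 0.145).

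**Figure D3:**
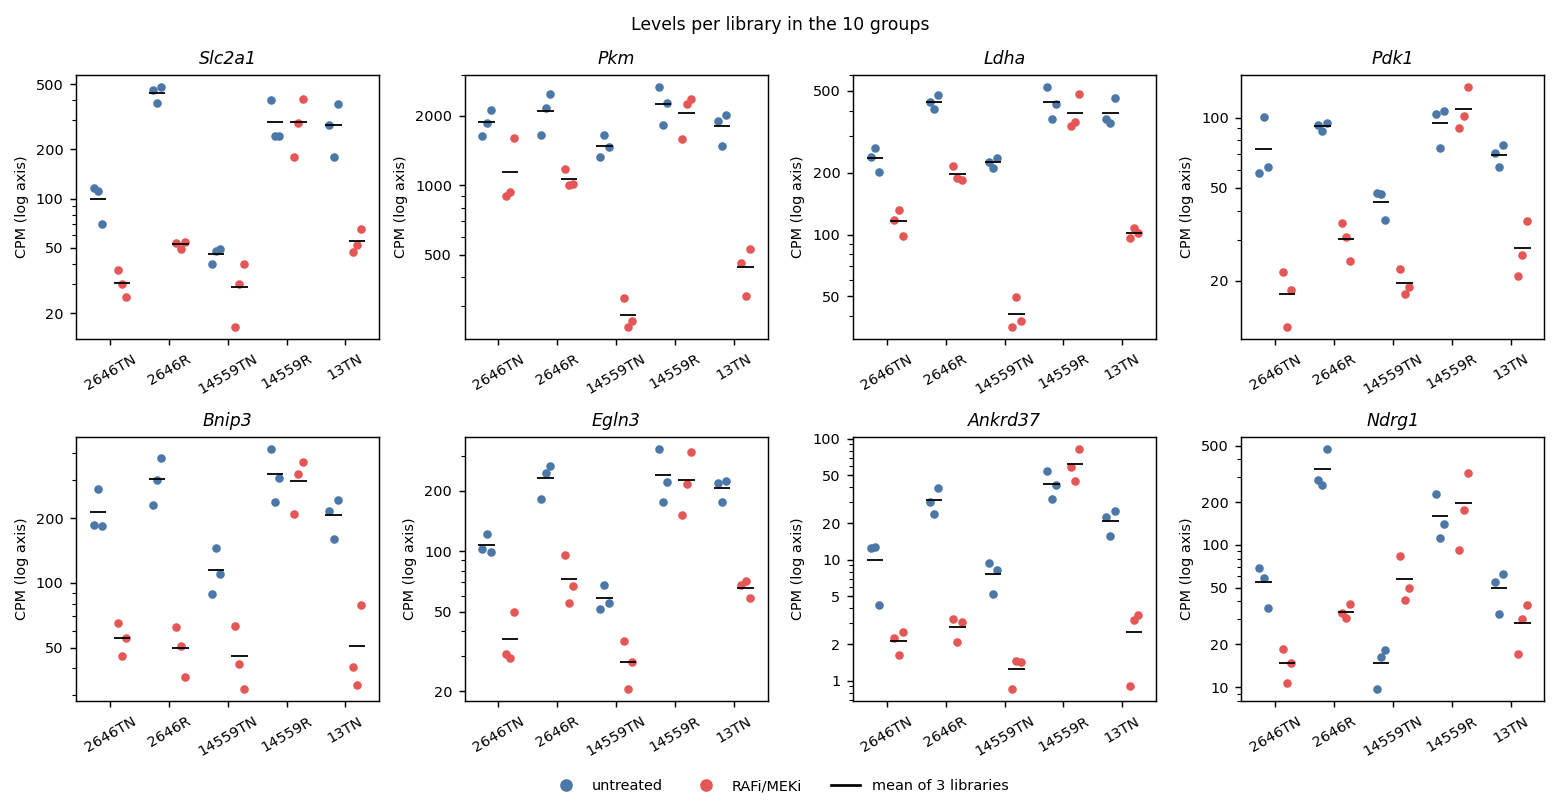
CPM per library (log axis) of 8 members in the 5 clones, blue for untreated and red for RAFi/MEKi, with lines at the mean of 3 libraries. Red points lie below blue ones in every clone but 14559R for Pkm, Ldha, Pdk1, Bnip3, Egln3 and Ankrd37, and above them for Ndrg1 in 14559TN.

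Ankrd37, a small ankyrin-repeat HIF target, had the largest called fall in 2646TN and 13TN, the next after Pgk1 in 14559TN and the next after Adm in 2646R. For Ankrd37 in 2646TN, the untreated levels were 12.6, 12.8 and 4.27 CPM and the treated levels 2.26, 1.62 and 2.52 CPM (-2.15 ± 0.44 on the log2 scale, edgeR adjusted p = 0.00262). In 2646R tumours Ankrd37 measured 29.9, 24.1 and 39.3 CPM untreated and 3.26, 2.11 and 3.04 CPM treated, a log2 fold change of -3.45 ± 0.38 (edgeR adjusted p = 7.22e-08). No treated library of either clone reached the lowest untreated one. The 14559TN libraries held Ankrd37 at 9.39, 5.22 and 8.32 CPM without the drugs and at 0.852, 1.46 and 1.43 CPM with them, which gave -2.58 ± 0.48 on the log2 scale (edgeR adjusted p = 1.21e-04). For Ankrd37 in 13TN, the untreated levels were 22.4, 15.6 and 25.2 CPM and the treated levels 0.902, 3.18 and 3.53 CPM (-3.05 ± 0.39 on the log2 scale, edgeR adjusted p = 3.02e-07). In 14559R tumours Ankrd37 measured 54.4, 31.9 and 41.5 CPM untreated and 59.0, 44.4 and 82.8 CPM treated, a log2 fold change of 0.54 ± 0.29 (edgeR adjusted p = 0.517). In 14559R the change was not called.

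Ndrg1, a stress-responsive gene of growth arrest and differentiation, was the member called lower in some clones and higher in another. The 2646TN libraries held Ndrg1 at 69.3, 58.6 and 36.0 CPM without the drugs and at 18.6, 10.7 and 14.6 CPM with them, which gave -1.88 ± 0.47 on the log2 scale (edgeR adjusted p = 0.0258). For Ndrg1 in 2646R, the untreated levels were 284, 266 and 475 CPM and the treated levels 33.2, 30.5 and 38.2 CPM (-3.33 ± 0.44 on the log2 scale, edgeR adjusted p = 1.45e-05). Both 2646TN and 2646R had lower Ndrg1 under treatment. The Ndrg1 call in 2646TN was lost without untreated 2646TN replicates 1 or 2 or treated 2646TN replicates 1, 2 or 3 (edgeR adjusted p = 0.0516 to 0.125). In 14559TN tumours Ndrg1 measured 9.64, 16.3 and 18.2 CPM untreated and 83.5, 40.9 and 49.4 CPM treated, a log2 fold change of 1.97 ± 0.47 (edgeR adjusted p = 0.00308). The 13TN libraries held Ndrg1 at 54.8, 32.7 and 62.8 CPM without the drugs and at 17.1, 29.9 and 38.0 CPM with them, which gave -0.82 ± 0.44 on the log2 scale (edgeR adjusted p = 0.167). For Ndrg1 in 14559R, the untreated levels were 227, 113 and 140.2 CPM and the treated levels 91.4, 175 and 321 CPM (0.29 ± 0.39 on the log2 scale, edgeR adjusted p = 0.857). Treated 14559TN libraries were all above the untreated ones, while the change in 13TN and in 14559R was not called.

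Adrenomedullin (Adm), a vasodilator peptide, was called in 1 response. In 2646R tumours Adm measured 18.9, 14.4 and 53.0 CPM untreated and 1.74, 0.469 and 0 CPM treated, a log2 fold change of -5.14 ± 0.91 (edgeR adjusted p = 3.61e-04). The 3 treated 2646R libraries were the lowest of that clone, and the changes in the other clones were not called (log2 fold changes of -1.599 ± 0.80 in 2646TN, 0.58 ± 0.89 in 14559TN, -0.19 ± 0.56 in 14559R and -1.43 ± 0.69 in 13TN).

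The collagen hydroxylases P4ha1 and P4ha2 (prolyl) and Plod2 (lysyl) stabilise and cross-link collagen, and all 3 fell in 4 clones. The 2646TN libraries held P4ha2 at 53.7, 51.7 and 29.7 CPM without the drugs and at 17.2, 11.7 and 9.59 CPM with them, which gave -1.81 ± 0.28 on the log2 scale (edgeR adjusted p = 1.36e-04). P4ha2 was also called in 2646R (-1.55 ± 0.24, edgeR adjusted p = 2.70e-05), 14559TN (-1.26 ± 0.26, edgeR adjusted p = 4.48e-04) and 13TN (-1.28 ± 0.25, edgeR adjusted p = 2.59e-04), and stood at -0.02 ± 0.23 in 14559R. For P4ha1, log2 fold changes of P4ha1 were -1.20 ± 0.18 in 2646TN, -1.28 ± 0.17 in 2646R, -0.57 ± 0.17 in 14559TN, -0.02 ± 0.17 in 14559R and -0.76 ± 0.17 in 13TN, and the 4 decreases outside 14559R were called (edgeR adjusted p = 2.11e-06 to 0.0127). The P4ha1 call in 14559TN was lost without untreated 14559TN replicate 3 or treated 14559TN replicates 1 or 3 (edgeR adjusted p = 0.0566, 0.099 and 0.0779). For Plod2, log2 fold changes of Plod2 were -0.81 ± 0.17 in 2646TN, -1.097 ± 0.17 in 2646R, -0.95 ± 0.17 in 14559TN, -0.04 ± 0.17 in 14559R and -1.01 ± 0.17 in 13TN, and the 4 decreases outside 14559R were called (edgeR adjusted p = 1.52e-05 to 0.00386).

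Fam162a, a mitochondrial HIF target linked to cell death, also fell in 4 clones. For Fam162a in 14559TN, the untreated levels were 136, 141 and 129 CPM and the treated levels 50.3, 61.2 and 48.0 CPM (-1.34 ± 0.19 on the log2 scale, edgeR adjusted p = 2.02e-06). Fam162a was also called in 2646TN (-1.22 ± 0.19, edgeR adjusted p = 1.07e-04), 2646R (-1.55 ± 0.18, edgeR adjusted p = 2.72e-07) and 13TN (-1.42 ± 0.19, edgeR adjusted p = 5.33e-07). Mxi1, an antagonist of Myc, fell in 3 clones. The log2 fold changes of Mxi1 were -1.005 ± 0.20 in 2646TN, -1.73 ± 0.20 in 2646R, -0.14 ± 0.20 in 14559TN, 0.18 ± 0.19 in 14559R and -1.09 ± 0.20 in 13TN, called lower in 2646TN, 2646R and 13TN (edgeR adjusted p = 1.37e-07 to 0.00222). Higd1a, a mitochondrial respiratory chain factor, fell in 2. The log2 fold changes of Higd1a were -0.61 ± 0.32 in 2646TN, -1.79 ± 0.30 in 2646R, -0.69 ± 0.31 in 14559TN, 0.04 ± 0.28 in 14559R and -1.35 ± 0.32 in 13TN, called lower in 2646R and 13TN (edgeR adjusted p = 5.92e-05 to 0.00123). Ddit4, an inhibitor of mTORC1 signalling, fell in 2646TN and 2646R. The log2 fold changes of Ddit4 were -1.47 ± 0.27 in 2646TN, -1.64 ± 0.26 in 2646R, -0.68 ± 0.27 in 14559TN, 0.54 ± 0.25 in 14559R and 0.03 ± 0.26 in 13TN, called lower in 2646TN and 2646R (edgeR adjusted p = 8.59e-05 to 0.00185). Kdm3a, a histone demethylase, was called in 2646R. The log2 fold changes of Kdm3a were -0.82 ± 0.25 in 2646TN, -1.51 ± 0.23 in 2646R, 0.06 ± 0.23 in 14559TN, 0.51 ± 0.22 in 14559R and -0.18 ± 0.23 in 13TN, called lower in 2646R (edgeR adjusted p = 1.06e-05).

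Glycolysis genes and the other HIF targets were compared by counts and medians, with no test between the classes. In 2646TN 8 of 20 tested glycolysis genes and 12 of 15 other HIF targets fell, with medians of -0.81 and -1.22 on the log2 scale. In 2646R 15 of 20 and 15 of 15 fell (medians -1.18 and -1.64). In 13TN the counts were 9 and 10 (medians -0.85 and -1.28). The other HIF targets thus had the lower median in these 3 clones. In 14559TN the order was the opposite: 11 glycolysis genes and 8 other HIF targets fell, with medians of -1.03 and -0.69, and Ndrg1 rose. In 14559R the medians were 0.18 and 0.04.

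The mean log2 CPM of each class in a library was also compared. From untreated to treated, the mean of the glycolysis genes changed by -0.94 in 2646TN, -1.11 in 2646R, -1.06 in 14559TN, 0.14 in 14559R and -0.86 in 13TN. That of the other HIF targets changed by -1.25, -1.95, -0.58, 0.12 and -1.18 in the same order. The larger standard deviation of the compared groups was at most 0.34, for the other HIF targets in 14559R. In 2646TN, 2646R, 14559TN and 13TN each change was larger than the spread between libraries, and in 14559R both were smaller.

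**Figure D4:**
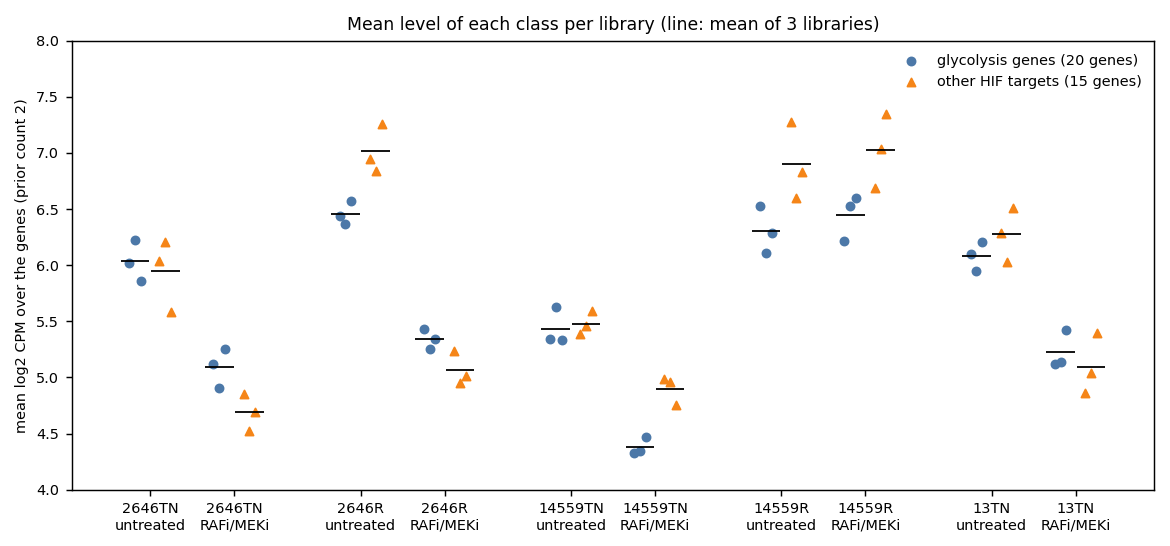
Mean log2 CPM (prior count 2) over 20 glycolysis genes (circles) and 15 other HIF targets (triangles) in each library of the 10 groups, with lines at the mean of 3 libraries. The treated groups of 2646TN, 2646R, 14559TN and 13TN lie below their untreated groups in both classes, and those of 14559R do not.

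R and TN clones of a pair were compared before and under treatment, to show where the members stood without the drugs. Differences below are log2 values of R over TN with their standard errors. In untreated 2646R against 2646TN 18 of 38 members were higher and 4 lower, where 18.3% and 18.4% of tested genes were. Of the 22 calls, 18 held under every alternative. Untreated 2646R and 2646TN also differed in the summed level of the pericyte and smooth muscle genes and of the macrophage genes given above, and the part of these was not tested. Slc2a1 (2.16 ± 0.31, edgeR adjusted p = 9.66e-06), Ndrg1 (2.65 ± 0.42, 5.29e-05) and Ankrd37 (1.67 ± 0.33, 1.54e-04) were higher in 2646R, from the library levels given above. Pgk1 measured 25.7, 8.52 and 6.01 CPM in 2646R and 3.28, 3.43 and 0.674 CPM in 2646TN (2.49 ± 0.67, edgeR adjusted p = 0.00392). The level of Pfkfb3 was 5.11, 8.76 and 27.6 CPM in 2646R libraries against 6.80, 4.99 and 2.70 CPM in 2646TN libraries (1.50 ± 0.52, edgeR adjusted p = 0.0215). Levels of Kdm3a were 89.8, 67.0 and 55.7 CPM for 2646R and 22.2, 29.0 and 24.5 CPM for 2646TN, a difference of 1.50 ± 0.23 (edgeR adjusted p = 4.63e-06). These were the largest called differences toward 2646R with at least 5 CPM in the higher group. The Pgk1 call in this comparison was lost without untreated 2646R replicate 1 (edgeR adjusted p = 0.0883). The Pfkfb3 call in this comparison was lost in a fit restricted to the compared groups (edgeR adjusted p = 0.0687) and without untreated 2646TN replicates 2 or 3 or untreated 2646R replicate 3 (edgeR adjusted p = 0.0549, 0.121 and 0.471). Toward 2646TN, Epas1 differed by -1.32 ± 0.28, edgeR adjusted p = 3.97e-04. Pfkfb4 measured 5.89, 4.498 and 4.37 CPM in 2646R and 13.4, 9.35 and 11.7 CPM in 2646TN (-1.21 ± 0.33, edgeR adjusted p = 0.00397). The level of Eno2 was 24.9, 26.0 and 19.7 CPM in 2646R libraries against 41.3, 53.9 and 46.5 CPM in 2646TN libraries (-0.997 ± 0.19, edgeR adjusted p = 1.13e-04). Levels of Bnip3l were 59.7, 69.6 and 85.8 CPM for 2646R and 99.5, 117 and 113 CPM for 2646TN, a difference of -0.61 ± 0.13 (edgeR adjusted p = 5.23e-04). All 4 genes lower in 2646R are thus named, among them the isoenzyme Eno2 and the paralogue Bnip3l.

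In untreated 14559R against 14559TN 24 of 38 members were higher and 2 lower, where 12.9% and 11.2% of tested genes were, and 22 of the 26 calls held under every alternative. The genes of dissociation stress summed to 1692 to 1834 CPM in untreated 14559R and 755.3 to 895 CPM in untreated 14559TN, and their part was not tested. Slc16a3 measured 46.6, 23.3 and 33.7 CPM in 14559R and 0, 2.46 and 1.01 CPM in 14559TN (4.94 ± 0.60, edgeR adjusted p = 3.13e-07). The level of Adm was 112, 35.6 and 46.4 CPM in 14559R libraries against 2.03, 1.54 and 4.79 CPM in 14559TN libraries (4.49 ± 0.75, edgeR adjusted p = 1.41e-04). No 14559TN library reached the 14559R range in Slc16a3 or Adm. Ndrg1 (3.44 ± 0.47, edgeR adjusted p = 1.60e-05) was higher in 14559R. Slc2a1 (2.68 ± 0.32, edgeR adjusted p = 1.93e-06) and Ankrd37 (2.46 ± 0.33, edgeR adjusted p = 1.72e-06) were also higher, as was Egln3 (2.05 ± 0.27, edgeR adjusted p = 3.58e-06). The lower members were the neuronal enolase and the muscle phosphofructokinase. Levels of Eno2 were 26.2, 41.2 and 32.5 CPM for 14559R and 63.4, 85.7 and 56.7 CPM for 14559TN, a difference of -1.04 ± 0.18 (edgeR adjusted p = 8.63e-05). Pfkm measured 17.5, 22.7 and 23.2 CPM in 14559R and 30.2, 39.0 and 30.8 CPM in 14559TN (-0.65 ± 0.20, edgeR adjusted p = 0.0173). The Pfkm call in this comparison was lost without untreated 14559TN replicate 2 or untreated 14559R replicate 1 (edgeR adjusted p = 0.0927 and 0.0985).

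The pairs were then compared under treatment. In treated 2646R against 2646TN 10 of 38 members were higher and 3 lower, where 10.0% and 10.1% of tested genes were, and 3 of the 13 calls held under every alternative. DESeq2 called 17 members higher in this comparison. The genes of dividing cells summed to 1183 to 1426 CPM in treated 2646R and 702 to 1058 CPM in treated 2646TN. The macrophage and the pericyte and smooth muscle sums given above also differed, and the part of these was not tested. The level of P4ha2 was 38.4, 40.1 and 38.0 CPM in 2646R libraries against 17.2, 11.7 and 9.59 CPM in 2646TN libraries (1.598 ± 0.28, edgeR adjusted p = 1.06e-04). Levels of Hk2 were 226, 213 and 284 CPM for 2646R and 181, 102 and 131 CPM for 2646TN, a difference of 0.80 ± 0.22 (edgeR adjusted p = 0.00964). Egln3 (0.99 ± 0.27, edgeR adjusted p = 0.0121), Pdk1 (0.78 ± 0.24, edgeR adjusted p = 0.0171) and Ldha (0.76 ± 0.16, edgeR adjusted p = 6.36e-04) were higher in treated 2646R. Kdm3a measured 21.3, 23.7 and 30.1 CPM in 2646R and 19.5, 9.74 and 13.4 CPM in 2646TN (0.81 ± 0.25, edgeR adjusted p = 0.0184). The Hk2 call in this comparison was lost without treated 2646TN replicate 2 (edgeR adjusted p = 0.0517). The Egln3 call in this comparison was lost without treated 2646R replicate 1 (edgeR adjusted p = 0.0853). The Pdk1 call in this comparison was lost in a fit restricted to the compared groups (edgeR adjusted p = 0.0523) and without treated 2646TN replicate 2 or treated 2646R replicate 1 (edgeR adjusted p = 0.0794 and 0.0842). The Kdm3a call in this comparison was lost in a fit restricted to the compared groups (edgeR adjusted p = 0.0661) and without treated 2646TN replicates 2 or 3 or treated 2646R replicate 3 (edgeR adjusted p = 0.0911, 0.059 and 0.0876). The level of Pfkp was 18.9, 23.4 and 24.3 CPM in 2646R libraries against 41.5, 45.1 and 68.9 CPM in 2646TN libraries (-1.23 ± 0.32, edgeR adjusted p = 0.0075). The Pfkp call in this comparison was lost without treated 2646TN replicate 3 (edgeR adjusted p = 0.0783). Levels of Eno2 were 21.9, 23.9 and 23.5 CPM for 2646R and 34.2, 28.2 and 45.4 CPM for 2646TN, a difference of -0.64 ± 0.19 (edgeR adjusted p = 0.0166). The Eno2 call in this comparison was lost in a fit restricted to the compared groups (edgeR adjusted p = 0.0636) and without treated 2646TN replicate 3 or treated 2646R replicates 1 or 3 (edgeR adjusted p = 0.187, 0.0639 and 0.0504). Bnip3l measured 54.3, 45.9 and 55.2 CPM in 2646R and 69.7, 78.6 and 88.6 CPM in 2646TN (-0.61 ± 0.14, edgeR adjusted p = 0.00164). Pfkp, Eno2 and Bnip3l were the 3 members lower in treated 2646R, a count near the share of tested genes and no result about the members as a group.

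In treated 14559R against 14559TN 31 of 38 members were higher and 0 lower, where 26.6% and 22.7% of tested genes were, and 30 of the 31 calls held under every alternative. The genes of dividing cells summed to 618 to 715 CPM in treated 14559R and 90.8 to 131 CPM in treated 14559TN, and their part in this comparison was not tested. Ankrd37 (5.58 ± 0.43, edgeR adjusted p = 6.55e-12) and Adm (3.72 ± 0.70, edgeR adjusted p = 1.60e-04) were higher. Slc2a1 (3.33 ± 0.33, edgeR adjusted p = 3.15e-08), Ldha (3.24 ± 0.17, edgeR adjusted p = 1.44e-15) and Egln3 (3.03 ± 0.28, edgeR adjusted p = 4.74e-09) were higher as well. For Adm, the treated levels were 35.4, 51.5 and 83.6 CPM in 14559R and 2.56, 7.10 and 2.57 CPM in 14559TN. Slc16a3 had 349 counts against 3, a ratio of 110.2 (95% exact Poisson interval 37.7 to 534, counting error only). Scaling by total counts alone moved the median of all genes by -0.14.

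**Figure D5:**
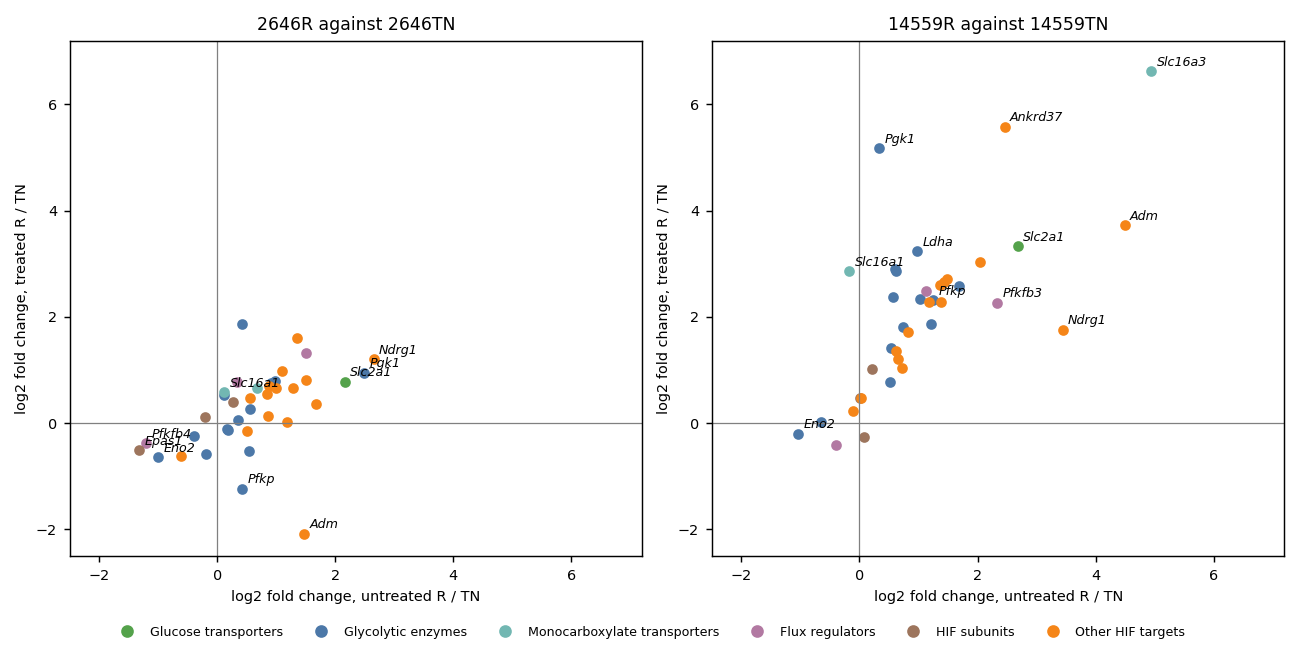
Log2 fold change of R over TN in untreated (x axis) and treated (y axis) tumours for the 38 tested members, for 2646R over 2646TN (left) and 14559R over 14559TN (right), coloured by role. On the treated axis 31 of the 38 members were called higher in 14559R and 10 in 2646R; Slc16a3 lies farthest from 0, and its treated value rests on 3 counts in 14559TN.

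Untreated TN clones also differed. In 2646TN against 14559TN 11 of 38 members were higher and 1 lower, where 10.1% and 8.76% of tested genes were, and 4 of the 12 calls held under every alternative. The fit of only these groups called 19 members higher. The genes of dissociation stress summed to 1437 to 2293 CPM in untreated 2646TN and 755.3 to 895 CPM in untreated 14559TN. The macrophage genes summed to 204 to 309 and 27.2 to 106 CPM, and the part of both was not tested. The level of Hk2 was 224, 284 and 166 CPM in 2646TN libraries against 62.2, 72.5 and 71.1 CPM in 14559TN libraries (1.71 ± 0.23, edgeR adjusted p = 2.72e-06). Levels of Pfkl were 227, 245 and 243 CPM for 2646TN and 89.6, 97.7 and 103 CPM for 14559TN, a difference of 1.30 ± 0.20 (edgeR adjusted p = 1.36e-05). Ndrg1 (1.89 ± 0.47, edgeR adjusted p = 0.00651) was higher in 2646TN as well. Slc2a1 (1.11 ± 0.31, edgeR adjusted p = 0.0149), Egln3 (0.89 ± 0.26, edgeR adjusted p = 0.0187) and Pdk1 (0.74 ± 0.21, edgeR adjusted p = 0.0119) were higher too. The Slc2a1 call in this comparison was lost without untreated 2646TN replicates 1 or 2 or untreated 14559TN replicate 1 (edgeR adjusted p = 0.0708, 0.0537 and 0.0722). The Egln3 call in this comparison was lost without untreated 2646TN replicate 2 or untreated 14559TN replicates 1 or 3 (edgeR adjusted p = 0.0706, 0.0852 and 0.0667). The Pdk1 call in this comparison was lost without untreated 2646TN replicate 2 or untreated 14559TN replicate 3 (edgeR adjusted p = 0.178 and 0.0853). Eno2 measured 41.3, 53.9 and 46.5 CPM in 2646TN and 63.4, 85.7 and 56.7 CPM in 14559TN (-0.54 ± 0.18, edgeR adjusted p = 0.0342). The Eno2 call in this comparison was lost with scaling by total counts only (edgeR adjusted p = 0.0572), with no filter on low counts (edgeR adjusted p = 0.0573) and without untreated 2646TN replicates 1 or 3 or untreated 14559TN replicates 1 or 2 (edgeR adjusted p = 0.0502 to 0.233).

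In untreated 2646TN against 13TN 3 of 38 members were higher and 7 lower, where 8.63% and 7.58% of tested genes were, and 3 of the 10 calls held under every alternative. The macrophage genes summed to 204 to 309 CPM in untreated 2646TN and 52.8 to 85.9 CPM in untreated 13TN, and their part was not tested. Slc2a1 (-1.50 ± 0.30, edgeR adjusted p = 0.00114), Ankrd37 (-1.11 ± 0.33, edgeR adjusted p = 0.0192) and Egln3 (-0.94 ± 0.26, edgeR adjusted p = 0.0128) were lower in 2646TN, as was Ldha (-0.74 ± 0.15, edgeR adjusted p = 7.36e-04). The level of Pfkp was 53.2, 80.4 and 68.1 CPM in 2646TN libraries against 158, 112 and 144 CPM in 13TN libraries (-1.04 ± 0.29, edgeR adjusted p = 0.015). Levels of Slc16a1 were 41.1, 51.7 and 53.7 CPM for 2646TN and 92.8, 75.2 and 83.7 CPM for 13TN, a difference of -0.78 ± 0.17 (edgeR adjusted p = 0.00107). The Ankrd37 call in this comparison was lost without untreated 2646TN replicate 3 or untreated 13TN replicate 3 (edgeR adjusted p = 0.161 and 0.0905). The Egln3 call in this comparison was lost without untreated 2646TN replicates 1 or 3 (edgeR adjusted p = 0.0501 and 0.0563). The Pfkp call in this comparison was lost without untreated 2646TN replicates 1 or 3 or untreated 13TN replicate 1 (edgeR adjusted p = 0.0834, 0.0507 and 0.0549). The 3 members called toward 2646TN were Pfkl, Pfkm and Slc16a3, a count near the share of tested genes and no result about the members as a group. The phosphofructokinase Pfkp went the other way, as given above. The Slc16a3 call rests on 17, 7 and 7 counts in the 2646TN libraries and 5, 0 and 0 in those of 13TN. Pfkl measured 227, 245 and 243 CPM in 2646TN and 177, 133 and 127 CPM in 13TN (0.71 ± 0.20, edgeR adjusted p = 0.0116). The level of Pfkm was 27.5, 43.0 and 30.1 CPM in 2646TN libraries against 20.7, 26.3 and 19.1 CPM in 13TN libraries (0.60 ± 0.20, edgeR adjusted p = 0.0417). The Pfkl call in this comparison was lost without untreated 13TN replicates 2 or 3 (edgeR adjusted p = 0.0608 and 0.0786). The Pfkm call in this comparison was lost with no filter on low counts (edgeR adjusted p = 0.096), in a fit restricted to the compared groups (edgeR adjusted p = 0.0614) and without untreated 2646TN replicates 2 or 3 or untreated 13TN replicates 1 or 3 (edgeR adjusted p = 0.0546 to 0.278). The Slc16a3 call in this comparison was lost without untreated 2646TN replicates 1 or 2 or untreated 13TN replicates 2 or 3 (edgeR adjusted p = 0.0514 to 0.183).

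In untreated 14559TN against 13TN 0 of 38 members were higher and 17 lower, where 5.63% and 5.55% of tested genes were, and 11 of the 17 calls held under every alternative. The genes of dissociation stress summed to 755.3 to 895 CPM in untreated 14559TN and 1237 to 1910 CPM in untreated 13TN. Those of dividing cells summed to 513 to 644 and 805 to 890.5 CPM, and the part of both was not tested. Levels of Pfkfb3 were 1.02, 0.922 and 0 CPM for 14559TN and 7.06, 10.9 and 12.3 CPM for 13TN, a difference of -3.93 ± 0.69 (edgeR adjusted p = 1.31e-04). Slc2a1 (-2.61 ± 0.32, edgeR adjusted p = 5.49e-06), Egln3 (-1.82 ± 0.27, edgeR adjusted p = 3.26e-05) and Ankrd37 (-1.44 ± 0.34, edgeR adjusted p = 0.00415) were lower in 14559TN. Ndrg1 (-1.77 ± 0.47, edgeR adjusted p = 0.0174) was lower too. Adm measured 2.03, 1.54 and 4.79 CPM in 14559TN and 17.5, 7.44 and 25.8 CPM in 13TN (-2.55 ± 0.78, edgeR adjusted p = 0.0371). The Ndrg1 call in this comparison was lost without untreated 14559TN replicate 1 or untreated 13TN replicates 1 or 3 (edgeR adjusted p = 0.0907, 0.0529 and 0.0703). The Adm call in this comparison was lost without untreated 14559TN replicates 1, 2 or 3 or untreated 13TN replicates 1 or 3 (edgeR adjusted p = 0.0529 to 0.154).

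Whether clones responded unlike each other was tested on the difference of log2 fold changes itself. For 14559R minus 14559TN 17 of 38 members differed upward and 0 downward (7.93% and 4.08% of tested genes), and 10 of the 17 calls held under every alternative. The differences were 3.12 ± 0.57 for Ankrd37 (edgeR adjusted p = 2.85e-04), 3.03 ± 0.27 for Slc16a1 (2.50e-09) and 2.30 ± 0.30 for Pkm (4.60e-06). For Ldha the difference was 2.26 ± 0.22, edgeR adjusted p = 2.39e-08, and for Eno1 1.82 ± 0.34, edgeR adjusted p = 4.70e-04. That of Pgk1 (4.84 ± 1.41, edgeR adjusted p = 0.0216) rests on 1 count in treated 14559TN, so its size is uncertain. The Pgk1 call in this difference was lost without treated 14559TN replicates 1 or 2 (edgeR adjusted p = 0.0617 and 0.0738).

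For 2646R minus 14559R 0 of 38 members differed upward and 27 downward (3.61% and 4.78% of tested genes), and 22 of the 27 calls held under every alternative. Adm (-4.95 ± 1.104, edgeR adjusted p = 0.00732), Ankrd37 (-4.00 ± 0.48, edgeR adjusted p = 2.84e-06) and Ndrg1 (-3.62 ± 0.58, edgeR adjusted p = 5.73e-04) had the largest called differences, ahead of Slc2a1 (-3.06 ± 0.43, edgeR adjusted p = 1.13e-04). Pgk1 (-2.96 ± 0.95, edgeR adjusted p = 0.0481) and Slc16a3 (-2.81 ± 0.88, edgeR adjusted p = 0.0436) were also called. The Pgk1 call in this difference was lost with median-of-ratios size factors (edgeR adjusted p = 0.05), with scaling by total counts only (edgeR adjusted p = 0.0533) and without untreated 2646R replicate 1, treated 2646R replicates 2 or 3, untreated 14559R replicates 1, 2 or 3 or treated 14559R replicates 1, 2 or 3 (edgeR adjusted p = 0.0673 to 0.234). The Slc16a3 call in this difference was lost without untreated 2646R replicates 1 or 3, treated 2646R replicates 1, 2 or 3, untreated 14559R replicates 2 or 3 or treated 14559R replicate 2 (edgeR adjusted p = 0.063 to 0.134). For 2646R minus 2646TN, 0 of 38 members differed upward and 1 downward (2.36% and 1.78% of tested genes). The 1 member was Pfkp (-1.65 ± 0.43, edgeR adjusted p = 0.0293), which fell in 2646R and was not called in 2646TN. The Pfkp call in this difference was lost without untreated 2646TN replicates 1 or 3, untreated 2646R replicates 2 or 3, treated 2646TN replicate 3 or treated 2646R replicates 1, 2 or 3 (edgeR adjusted p = 0.0501 to 0.0918). A p that misses the threshold here does not show that the clones of this pair responded alike.

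For 2646TN minus 14559TN 3 of 38 members differed upward and 3 downward (8.87% and 5.19% of tested genes), so 6 members were called. Ndrg1 (-3.86 ± 0.67, edgeR adjusted p = 4.14e-04) fell in 2646TN and rose in 14559TN. Slc16a1 (1.83 ± 0.27, edgeR adjusted p = 1.07e-05), Pkm (1.71 ± 0.29, edgeR adjusted p = 1.70e-04) and Ldha (1.42 ± 0.22, edgeR adjusted p = 3.18e-05) had the more negative log2 fold change in 14559TN. Mxi1 (-0.86 ± 0.28, edgeR adjusted p = 0.0371) and Arnt (-0.74 ± 0.24, edgeR adjusted p = 0.039) differed downward. The Mxi1 call in this difference was lost without untreated 2646TN replicates 2 or 3, untreated 14559TN replicate 1, treated 14559TN replicates 1 or 3 or treated 2646TN replicates 1 or 2 (edgeR adjusted p = 0.0528 to 0.0953). The Arnt call in this difference was lost with no filter on low counts (edgeR adjusted p = 0.138), in a fit restricted to the compared groups (edgeR adjusted p = 0.0611) and without untreated 2646TN replicates 1 or 2, untreated 14559TN replicates 2 or 3, treated 14559TN replicates 2 or 3 or treated 2646TN replicates 2 or 3 (edgeR adjusted p = 0.0598 to 0.122). For 14559TN minus 13TN 0 of 38 members differed upward and 1 downward (0.263% and 0.181% of tested genes). This was Slc16a1 (-2.14 ± 0.26, edgeR adjusted p = 2.47e-05), lower in treated 14559TN and not called in 13TN.

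Genes of the same pathways outside the 41 were counted from lists of named genes. Of 26 tested hypoxia genes, 0 rose and 9 fell in 2646TN, 0 rose and 16 fell in 2646R, 3 rose and 8 fell in 14559TN, 0 rose and 1 fell in 14559R and 2 rose and 9 fell in 13TN. Of all tested genes, 1.69% rose and 2.24% fell in 2646TN, 9.70% rose and 10.2% fell in 2646R, 12.4% rose and 16.0% fell in 14559TN, 0.143% rose and 0.0527% fell in 14559R and 13.6% rose and 17.4% fell in 13TN. Car9, the membrane carbonic anhydrase, went in 13TN from 35.3 ± 2.75 to 1.13 ± 0.988 CPM, mean ± SD, n = 3 (-4.97 ± 0.41, edgeR adjusted p = 4.32e-11). Ero1l, an oxidase of protein folding, went in 2646R from 448 ± 41.7 to 37.8 ± 3.88 CPM, mean ± SD, n = 3 (-3.56 ± 0.40, edgeR adjusted p = 1.68e-06). Mif, a cytokine, went in 14559TN from 57.9 ± 5.70 to 9.64 ± 1.99 CPM, mean ± SD, n = 3 (-2.57 ± 0.37, edgeR adjusted p = 9.88e-06). Between untreated clones, 18 of the 26 were higher and 1 lower in 2646R than in 2646TN, beside 18.3% and 18.4% of tested genes. In untreated 14559R 13 were higher and 2 lower than in 14559TN, beside 12.9% and 11.2%, so the 2 lower are near that share.

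The 7 pentose phosphate genes, which branch off glycolysis to make NADPH and ribose, were called 6 times lower and 1 time higher in 14559TN and 4 times lower and 1 time higher in 13TN, and 0 were called in 2646TN and 14559R. Of all tested genes 16.0% were lower and 12.4% higher in 14559TN, and 17.4% and 13.6% in 13TN. The 1 gene called higher in each of these clones is near its share. In 2646R 1 rose and 2 fell, beside 9.70% and 10.2% of tested genes, and the 1 that rose is near its share. Of 17 other glycolysis and branch genes, 1 rose and 0 fell in 2646TN, 0 rose and 2 fell in 2646R, 1 rose and 4 fell in 14559TN, 0 rose and 0 fell in 14559R and 2 rose and 4 fell in 13TN. The counts in 2646R, 14559TN and 13TN are near those shares. Of 7 tested glycogen genes, 0 were called in 2646TN, 14559TN and 14559R. In 13TN 0 rose and 1 fell, beside 13.6% and 17.4% of tested genes, so the 1 that fell is near its share. In 2646R 1 rose and 4 fell, beside 9.70% and 10.2% of tested genes, and the 1 that rose is near its share. The 1 that rose was Pygb, a glycogen phosphorylase, from 41.7 ± 10.7 to 78.7 ± 9.19 CPM, mean ± SD, n = 3 (0.92 ± 0.23, edgeR adjusted p = 0.00403). Of 10 HIF pathway regulators, 1 rose and 3 fell in 14559TN, beside 12.4% and 16.0% of tested genes. In 13TN 1 rose and 1 fell, beside 13.6% and 17.4%, and 0 were called in 2646TN, 2646R and 14559R. The counts in 13TN and the count that rose in 14559TN are near those shares and are no result about the regulators as a group. Hif3a, a HIF alpha paralogue, was the regulator that rose in 14559TN and in 13TN, at 0 CPM in every untreated library of both. Treated libraries held 2.12 ± 1.00 CPM in 14559TN (SD, n = 3, edgeR adjusted p = 0.00455). In treated 13TN libraries the level was 2.99 ± 0.756 CPM (SD, n = 3, edgeR adjusted p = 0.00141), and both levels are low.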

How the data were processed

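Gene counts were deposited for each of 30 libraries of 3′ end sequencing. The authors made these read counts with featureCounts 1.6.2 in stranded mode, per the file headers, without counting reads of several genes or positions. STAR 2.6.0c and the build GRCm38 are named in the submitters' processing notes. Groups were taken from the labels, which do not say whether tumours of a group came from separate mice, so p-values measure only the spread between these samples. Library totals ran from 3022801 to 5278453 counts (median 4042893), which leaves a gene with few counts imprecise.

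The counts were fitted in R 4.3.3 with edgeR 4.0.16 (quasi-likelihood, robust, TMM scaling) over all 10 groups, with 13286 genes kept by filterByExpr. P-values were adjusted by Benjamini-Hochberg over those genes, and an adjusted p under 0.05 is a call. The standard error of a log2 fold change was its size divided by the square root of F. The fit had 20 residual degrees of freedom and a common biological coefficient of variation of 18.2%. CPM use TMM-scaled totals. The scripts were tested on simulated data. Alternatives were median-of-ratios size factors, total counts, no low-count filter, DESeq2 1.42.0, fits of only the groups compared, and leaving out each library.

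The members and gene lists were chosen with earlier results of these data known. Library values are printed for Slc2a1, Ldha, Pdk1, Bnip3, Egln3, Hif1a and Epas1 in every response, and for up to 6 called members per direction with the largest change and at least 5 CPM in the higher group; some further members are named to account for every one.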

Additional observations from a re-analysis of the deposited data

Results flagged for a closer look

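The responses of clones to RAFi/MEKi differed for some members when the difference of log2 fold changes was itself tested in edgeR, and this is why the following are listed. For 14559R minus 14559TN 17 of 38 members were called, all upward, where 7.93% of tested genes differed upward, with differences of 4.84 for Pgk1, 3.12 for Ankrd37 and 3.03 for Slc16a1 as the largest, and the Pgk1 value rests on 1 count in treated 14559TN. For 2646R minus 14559R 27 members were called, all downward (4.78% of tested genes), and the largest differences were -4.95 for Adm, -4.00 for Ankrd37 and -3.62 for Ndrg1. For 2646TN minus 14559TN 6 members were called, 3 upward and 3 downward, among them Ndrg1 at -3.86, Slc16a1 at 1.83 and Pkm at 1.71. Of tested genes 8.87% differed upward and 5.19% downward there, so the members' counts are near the background and are no result about the members as a group. For 2646R minus 2646TN 1 member was called, Pfkp, at -1.65, where 1.78% of tested genes differed downward, so this count too is near the background. For 14559TN minus 13TN 1 member was called, Slc16a1, at -2.14, where 0.181% of tested genes differed downward.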

How the results depend on the processing

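No call of a member turned direction under any alternative run, and counts of called members are given here against the main count in brackets. With total counts only, 0 members (1) were lower in untreated 2646TN against 14559TN, the response difference 2646TN minus 14559TN had 5 downward (3), and 14559TN minus 13TN had 1 upward (0). With no filter on low counts, 1 member (0) rose in 14559R, 1 (2) rose in 13TN, 5 (3) were lower in treated 2646R against 2646TN, and 0 (1) were lower in untreated 2646TN against 14559TN. The same setting gave 5 downward (1) for 2646R minus 2646TN, 1 downward (0) for 14559R minus 14559TN, 6 downward (3) for 2646TN minus 14559TN, and 4 upward (0) and 3 downward (1) for 14559TN minus 13TN. DESeq2 called 1 member (0) higher in 14559R, 17 (10) higher in treated 2646R against 2646TN and 1 (0) higher in untreated 14559TN against 13TN. DESeq2 also gave 3 downward (1) for 2646R minus 2646TN, 1 downward (0) for 14559R minus 14559TN, and 2 upward (0) and 2 downward (1) for 14559TN minus 13TN. Fits of only the groups compared gave 19 higher (11) in untreated 2646TN against 14559TN, 1 higher (0) in untreated 14559TN against 13TN, 3 downward (1) for 2646R minus 2646TN, and 2 upward (0) and 3 downward (1) for 14559TN minus 13TN. Median-of-ratios size factors moved none of these counts by over 1.5 times. The cause of these changes was not tested.

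Leaving out each library in turn gave these lowest and highest counts. In the responses, 1 to 2 members (1) rose in 14559TN, 0 to 1 (0) in 14559R and 1 to 3 (2) in 13TN. Between R and TN clones, 1 to 2 (2) were lower in untreated 14559R, and 6 to 10 (10) were higher and 1 to 4 (3) lower in treated 2646R. Between untreated TN clones, 4 to 11 (11) were higher and 0 to 1 (1) lower in 2646TN against 14559TN, 0 to 3 (3) higher and 3 to 7 (7) lower in 2646TN against 13TN, and 0 to 1 (0) higher and 11 to 16 (17) lower in 14559TN against 13TN. The differences gave 0 to 2 downward (1) for 2646R minus 2646TN, 0 to 1 downward (0) for 14559R minus 14559TN and 1 to 5 downward (3) for 2646TN minus 14559TN.

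Over all genes, the calls of the 14559R response numbered 26, against 319 with no filter, 112 with DESeq2, 3 in the fit of only its groups and 4 to 84 with a library left out. For 2646TN 523 genes were called, against 965 with no filter and down to 240 with a library left out. The difference 2646R minus 2646TN had 551, against 977 with no filter and 352 to 831 with a library left out. The difference 14559TN minus 13TN had 59, against 332 with no filter, 154 with DESeq2, 188 in the fit of only its groups and down to 29 with a library left out. Leaving out a library took untreated 14559TN against 13TN from 1486 to as few as 943 and 2646TN against 13TN from 2153 to as few as 1239. No paired analysis was possible because the replicate numbers follow accession order and the labels give every tumour a code of its own. Values of members with few counts, such as Pgk1 and Slc16a3, carry a large counting error.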
